A study of Mus musculus with 158 samples.

Results

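The genes for 6 transcription factors of the hepatocyte network were followed through maps of open chromatin: the nuclear receptors Hnf4a and Hnf4g, the forkhead factors Foxa1, Foxa2 and Foxa3, and the cut-homeodomain factor Onecut1. They are 6 of 21755 protein-coding genes of the annotation. The rule is their names and uses no measured value, but these genes and the gene lists used here were chosen with earlier results of these data known. Each locus was the annotated gene body with 20 kb on either side in mm10, and every DNase-seq hotspot that touched it by at least 1 bp was kept. A hotspot is a stretch of the genome in which DNase I cleavage exceeded the local background at a false discovery rate (FDR) of 5%. All animals were F1 hybrids of a C57BL/6J mother, so every sample carries 1 C57BL/6J genome, and they were killed when 8 weeks old. The father was of a classical laboratory strain in B6x129 and B6xC3H, of a wild-derived strain in B6xCAST and B6xPWK, and of another mouse species, Mus spretus, in B6xSPRET. Whole liver, whole kidney and whole lung were pooled across mice, and B cells came from the femoral marrow of females after depletion of CD43 and Mac-1/CD11b cells. The deposited calls give 1 hotspot set per hybrid and tissue, 20 adult sets in all, besides a DNase-seq and a CTCF ChIP-seq set from B6xCAST mouse embryonic stem cells (mESC). RNA-seq was deposited for 17 samples of 4 hybrids.

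HNF4A and HNF4G are nuclear receptors that bind the same kind of DNA element, and HNF4A is needed for the identity of hepatocytes and also acts in the proximal tubule of the kidney. FOXA proteins are pioneer factors that bind their sites on nucleosomes, and FOXA1 and FOXA2 also act in the epithelium of the lung. ONECUT1, also called HNF6, acts in liver, bile duct and pancreas, and the factors of this network bind the regulatory DNA of each other's genes.

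The loci were Hnf4a (ENSMUSG00000017950.16, chr2:163506808-163572910, plus strand), Hnf4g (ENSMUSG00000017688.14, chr3:3508030-3658052, plus), Foxa1 (ENSMUSG00000035451.7, chr12:57540628-57546916, minus), Foxa2 (ENSMUSG00000037025.11, chr2:148042877-148046969, minus), Foxa3 (ENSMUSG00000040891.6, chr7:19013284-19023538, minus) and Onecut1 (ENSMUSG00000043013.10, chr9:74861921-74891781, plus). With their flanks they spanned from 44.1 kb at Foxa2 to 190.02 kb at Hnf4g.

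The sequences below are DNA at some of the starts and sites described further on, and none of them overlaps an annotated exon. They were read from the RefSeq GRCm38.p6 assembly (mm10) and therefore from the C57BL/6J reference. The first 4 are the 200 bases before a transcript start, 5′ to 3′ on the strand of the gene: the upstream start of Hnf4a (Hnf4a-205, chr2:163506608-163506807, plus strand), which held a hotspot in liver only; the downstream starts of Hnf4a (Hnf4a-203, Hnf4a-202 and Hnf4a-201, chr2:163546617-163546816, plus strand), open in liver and kidney; the start of Hnf4g (Hnf4g-201, chr3:3507830-3508029, plus strand); and the start of Foxa1-201 (chr12:57546122-57546321, minus strand), open in liver and lung. Capitals mark exact matches, on either strand, to ATCAAT for ONECUT or to TGTTTAC for FOXA.
Hnf4a-205, upstream: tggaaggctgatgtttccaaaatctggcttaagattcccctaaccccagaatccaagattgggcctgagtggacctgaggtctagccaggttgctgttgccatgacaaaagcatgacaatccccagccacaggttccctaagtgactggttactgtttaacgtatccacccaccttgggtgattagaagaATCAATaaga
Hnf4a-203/Hnf4a-202/Hnf4a-201, upstream: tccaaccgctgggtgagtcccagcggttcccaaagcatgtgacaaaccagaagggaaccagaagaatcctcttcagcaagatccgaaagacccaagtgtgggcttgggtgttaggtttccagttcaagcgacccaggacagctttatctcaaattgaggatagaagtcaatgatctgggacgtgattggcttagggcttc
Hnf4g-201, upstream: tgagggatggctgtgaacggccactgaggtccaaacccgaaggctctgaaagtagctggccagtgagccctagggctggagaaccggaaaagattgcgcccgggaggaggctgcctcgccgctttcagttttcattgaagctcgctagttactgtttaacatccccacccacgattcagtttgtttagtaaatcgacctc
Foxa1-201, upstream: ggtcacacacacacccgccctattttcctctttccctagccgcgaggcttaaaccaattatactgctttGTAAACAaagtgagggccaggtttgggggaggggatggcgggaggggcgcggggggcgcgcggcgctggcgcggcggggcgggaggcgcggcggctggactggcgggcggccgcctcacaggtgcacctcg

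The next 3 are stretches of 121 bases around a motif match inside a hotspot: a liver-only site 4.27 kb into Hnf4a with TGTTTAC in capitals (chr2:163511066-163511186, plus strand), the site upstream of Hnf4g that also bound CTCF in mESC with a match to the CTCF core motif in capitals (chr3:3502738-3502858, plus strand), and the only site of the loci that held CAAAGTCCA, a form of the HNF4 element, in Onecut1 (chr9:74872919-74873039, plus strand).
Hnf4a liver-only site: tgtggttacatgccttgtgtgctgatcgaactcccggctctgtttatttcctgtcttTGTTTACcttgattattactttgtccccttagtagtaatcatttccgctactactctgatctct
Hnf4g CTCF site: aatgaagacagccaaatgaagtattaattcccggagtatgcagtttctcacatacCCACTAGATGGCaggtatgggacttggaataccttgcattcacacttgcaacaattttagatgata
Onecut1 site with the HNF4 element: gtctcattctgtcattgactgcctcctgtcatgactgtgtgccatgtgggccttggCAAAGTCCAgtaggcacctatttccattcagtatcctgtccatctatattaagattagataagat

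The upstream start of Hnf4a and the start of Hnf4g shared an unbroken run of 13 bases, shown in capitals in the 40-base stretches below (chr2:163506748-163506787 and chr3:3507969-3508008, both plus strand). It began 52 bases before the start of Hnf4a-205 and 53 bases before that of Hnf4g-201, and 26 of the 40 letters of the aligned stretches were equal. The run differed by 2 letters from the palindromic HNF1 element, and it stood in 2 of 32851 RefSeq promoters (0.00609%), those of Hnf4a and Cyp2c68, in a table without an Hnf4g entry. This comparison was chosen after the sequences had been seen and is a description of letters, not of binding.
Hnf4a-205: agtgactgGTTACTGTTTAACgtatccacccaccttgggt
Hnf4g-201: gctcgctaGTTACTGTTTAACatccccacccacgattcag

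The adult sets differed in extent. Liver sets covered 78.4 to 128.8 Mb of the genome, kidney sets 63.6 to 85.2 Mb, lung sets 43.8 to 97.0 Mb and B cell sets 29.0 to 68.7 Mb, so a locus can be more covered in liver without being particular to liver. Several markers at annotated starts followed the labels. Apoa2 held a hotspot in 5 of 5 liver sets and in no other, and Slc34a1 in 5 of 5 kidney sets and in no other. Sftpc, Sftpa1 and Scgb1a1 held 1 in 5 of 5 lung sets and in no other. Umod, also a kidney tubule marker, was open in 5 kidney sets but in 4 liver sets as well. The stem cell marker Pou5f1 was open in mESC but also in 4 liver and 2 lung sets. Cd79a, of the B cell receptor, held 1 in 5 of 5 B cell sets, in 4 lung sets and in 2 liver sets. Alb held 1 in all liver, kidney and lung sets, and the endothelial gene Cdh5 in all 20. Of the macrophage genes, Csf1r was open in 4 liver, 4 lung, 4 B cell and 0 kidney sets. Adgre1 was open in 5 liver, 5 lung, 3 B cell and 2 kidney sets. In these bulk samples, a larger share of cells with an open site and a site more open in each cell cannot be told apart, and the same holds for RNA. The part of cell composition in the results below was not tested.

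Across the 6 loci together, hotspots covered 64.6 to 124.9 kb in the liver sets (12.8% to 24.7% of the windows). They covered 19.6 to 38.3 kb in kidney, 18.5 to 53.6 kb in lung and 6.90 to 19.9 kb in B cells, so the lowest liver set lay above the highest set of any other tissue. To test each locus, the bp covered in the 5 sets of a tissue were compared with the other 15 sets by exact permutation of tissue labels within hybrids (two-sided, smallest possible p = 0.000977), with Benjamini-Hochberg adjustment over 21495 protein-coding genes. The 5 hybrids serve as the repeats, so the p-values measure the spread between pooled sets of different genotype. By this test 4 of the 6 loci were more covered in liver (Hnf4a, Foxa2, Foxa3 and Onecut1), against 37.7% of all genes tested. In kidney 1 was more covered (Hnf4g, background 6.31%), in lung 0, and in B cells 1 was less covered (Foxa1, background 23.4%). Lung gave a background of 0% by the adjusted exact permutation test, with 3518 genes (16.4%) at an unadjusted p under 0.05, Foxa1 among them.

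**Figure D1:**
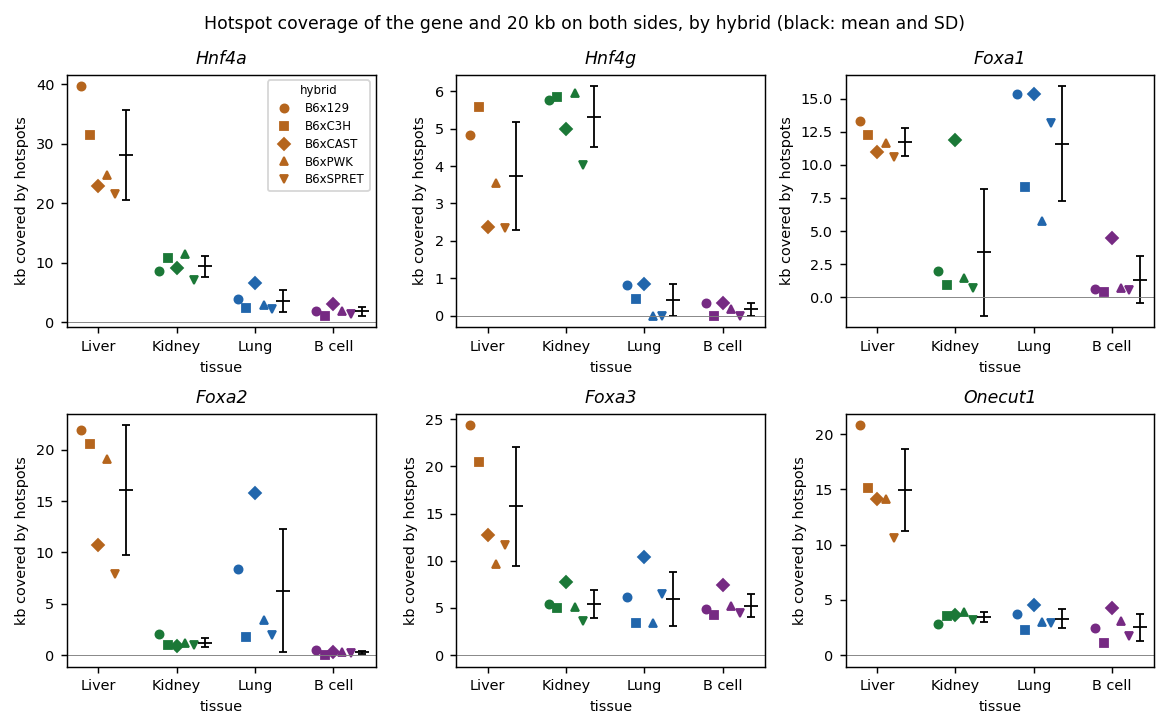
Kilobases covered by hotspots (vertical axis) in each locus with 20 kb on both sides, for the 4 tissues (horizontal axis); each symbol is 1 hybrid's pooled set, and the black bar is the mean ± SD of the 5 hybrids. All 5 liver values lie above all others at Hnf4a and Onecut1, kidney lies above liver within every hybrid at Hnf4g, and the B6xCAST kidney set stands at 11.9 kb at Foxa1 while the other kidney sets lie below 2 kb.

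Hnf4a had the most bp covered in liver and in kidney of the 6 loci, but not in lung or B cells, and as a share of its window it stood below Foxa2 in liver (26.5% against 36.4%). Its covered length in liver was 39698 bp in B6x129, 31526 bp in B6xC3H, 22947 bp in B6xCAST, 24775 bp in B6xPWK and 21620 bp in B6xSPRET, made of 43 to 63 hotspots. In kidney the same order of hybrids gave 8563, 10873, 9089, 11453 and 7093 bp, in lung 3854, 2379, 6621, 3005 and 2200 bp, and in B cells 1910, 1134, 3130, 1920 and 1372 bp. The liver values did not overlap those of any other tissue, which was so for 14.4% of all genes, and within every hybrid the order was liver, kidney, lung and B cells. Liver averaged 28113 ± 7514 bp, kidney 9414 ± 1768 bp, lung 3612 ± 1802 bp and B cells 1893 ± 771 bp (SD, n = 5 hybrids). Liver was 5.65-fold above the mean of the other sets (exact permutation p = 0.000977, the smallest possible, adjusted p = 0.00472). The difference between B cells and the rest, 0.138-fold, was not called (exact permutation, adjusted p = 0.112).

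Hnf4g, the paralogue of Hnf4a, had its widest coverage in kidney. The kidney sets covered 5770 bp in B6x129, 5859 bp in B6xC3H, 4979 bp in B6xCAST, 5965 bp in B6xPWK and 4035 bp in B6xSPRET, and the liver sets 4834, 5568, 2369, 3545 and 2341 bp in the same order. Lung gave 819, 444, 854, 0 and 0 bp and B cells 329, 0, 354, 191 and 0 bp, where 0 means that no hotspot passed the 5% FDR in the locus. Kidney exceeded liver within 5 of 5 hybrids, although the ranges of the tissues overlapped. Kidney averaged 5322 ± 818 bp against 3731 ± 1450.25 bp in liver (SD, n = 5 hybrids). The kidney mean was 3.69-fold the mean of all other sets, which the low lung and B cell values pull down (exact permutation p = 0.000977, adjusted p = 0.0211). This call needed all 5 hybrids: with any 1 of them left out the adjusted p was 0.0579 to 0.0850 by exact permutation, in a design whose smallest p is then 0.00391 and which calls 0% of genes in kidney. Liver against the rest was 1.89-fold and not called (adjusted p = 0.327, exact permutation).

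Foxa1 was open in both liver and lung. Liver sets covered 13280, 12240, 10990, 11670 and 10591 bp in the order B6x129, B6xC3H, B6xCAST, B6xPWK and B6xSPRET, and lung sets covered 15356, 8303, 15365, 5760 and 13183 bp. Kidney sets covered 1965, 909, 11892, 1495 and 711 bp, and B cell sets 622, 381, 4480, 680 and 568 bp. Lung lay above liver in 3 of 5 hybrids and above kidney in 5 of 5, and the B6xCAST set was the highest of its tissue in kidney and B cells by a wide gap. The means were 11754 ± 1062 bp in liver and 11593 ± 4352 bp in lung, with 3394 ± 4776 bp in kidney and 1346 ± 1755 bp in B cells (SD, n = 5 hybrids).

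B cells were 0.151-fold the other sets at Foxa1 (exact permutation, adjusted p = 0.0280). That call was lost without B6x129 (adjusted p = 0.0815), B6xC3H (0.0669), B6xCAST (0.0842) or B6xSPRET (0.0613), each by exact permutation, and it held without B6xPWK (0.0480). Liver was 2.16-fold above the rest with an adjusted p of 0.0829, and lung 2.11-fold with an adjusted p of 0.288, both by exact permutation. Without B6xCAST the liver comparison was called (adjusted p = 0.0462, exact permutation, 7784 bp above the rest). Counted by number, Foxa1 had fewer hotspots in liver (7.80 ± 1.64) than in lung (17.8 ± 4.02, SD, n = 5 hybrids), and the widest of the liver sets measured 2759 to 6875 bp.

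The exceptional B6xCAST kidney value at Foxa1 came from 23 hotspots, against 3 to 9 in the other kidney sets. One of them reached the start of Foxa1-201 with a −log10 FDR of 51.0, where no other kidney set had a hotspot. The B6xCAST kidney set was not the largest of its tissue, at 84.0 Mb against 85.2 Mb in B6xPWK, whereas the B6xCAST B cell set, at 68.7 Mb, was the largest of the B cell sets. The lung epithelial markers Sftpc, Sftpa1 and Scgb1a1 held a hotspot in 0 of 5 kidney sets. Whether the cells present or the extent of the set account for the B6xCAST kidney value was not tested.

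Foxa2 was widely open in liver and varied between hybrids. Liver sets covered 21946, 20609, 10691, 19159 and 7861 bp in the same order, kidney sets 2069, 945, 922, 1210 and 971 bp, lung sets 8360, 1733, 15835, 3449 and 1907 bp and B cell sets 457, 0, 305, 257 and 226 bp. The B6xCAST lung set lay above the liver set of its own hybrid, the only such case. All B cell values lay below all others, which held for 10.5% of genes. The mean in liver was 16053 ± 6344 bp against 6257 ± 5988 bp in lung, 1223 ± 487 bp in kidney and 249 ± 165 bp in B cells (SD, n = 5 hybrids). Liver was 6.23-fold above the rest (exact permutation, adjusted p = 0.00774), while the difference of B cells was not called (adjusted p = 0.123, exact permutation). Lung exceeded the rest by 415 bp with all sets and was -2447 bp relative to it without B6xCAST, and neither was called by exact permutation (adjusted p = 0.976 and 0.821).

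Foxa3 had a floor of open chromatin in every tissue. Liver sets covered 24364, 20504, 12754, 9652 and 11646 bp, kidney sets 5458, 5012, 7725, 5082 and 3608 bp, lung sets 6155, 3352, 10387, 3396 and 6480 bp and B cell sets 4877, 4253, 7402, 5213 and 4477 bp. The lowest liver set lay below the highest lung set, but liver was the highest tissue within each hybrid. Liver averaged 15784 ± 6321 bp, against 5377 ± 1489 for kidney, 5954 ± 2885 for lung and 5244 ± 1261 for B cells (SD, n = 5 hybrids), a 2.86-fold excess in liver (exact permutation, adjusted p = 0.00472). The locus is shared with broadly used genes: the start of Sympk, which encodes a scaffold of mRNA 3′-end processing, lies 839 bp upstream of Foxa3 and held a hotspot in all 20 adult sets, as did the start of Irf2bp1.

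Onecut1 was open in liver above a low and even level elsewhere. Liver sets covered 20806, 15113, 14114, 14134 and 10561 bp, kidney sets 2774, 3518, 3659, 3925 and 3154 bp, lung sets 3746, 2311, 4549, 2991 and 2864 bp and B cell sets 2420, 1135, 4241, 3039 and 1693 bp. No liver value overlapped another tissue. The liver mean was 14946 ± 3706 bp, and kidney, lung and B cells averaged 3406 ± 449.7, 3292 ± 869 and 2506 ± 1209 bp (SD, n = 5 hybrids). Liver was 4.87-fold above the rest (exact permutation, adjusted p = 0.00472), and the means of kidney and lung differed by less than the SD of either.

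Whether each start was open separated the loci more finely than covered length. A start was counted as open where a hotspot lay within 250 bp of it, and starts within 500 bp of each other were joined, which gave 12 start groups in the loci and 51913 in the genome. The upstream start of Hnf4a, Hnf4a-205, which corresponds to the promoter usually called P2, was open in 5 of 5 liver sets and in no other adult set and not in mESC. That pattern was found at 615 of 51913 start groups (1.18%). Its −log10 FDR in liver was 67.2 in B6x129, 95.1 in B6xC3H, 100 in B6xCAST and B6xPWK and 87.4 in B6xSPRET, where 100 is the ceiling of the files. The hotspots were 412 to 662 bp wide and each spanned the 200 upstream bases printed above.

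The downstream starts of Hnf4a, usually called P1, were open in 5 liver and 5 kidney sets and in no lung or B cell set, a pattern of 446 start groups (0.859%). Their −log10 FDR was 91.2 to 100 in liver and 35.0 to 66.7 in kidney. The hotspots also differed in extent, from 760 to 1096 bp in liver against 471 to 626 bp in kidney, with the liver hotspots beginning further upstream. They began between 163546446 and 163546614 in liver and between 163546722 and 163546857 in kidney, so the printed bases before P1 were covered wholly in liver and in part or not at all in kidney. At Hnf4a-204, a start further downstream in the gene (chr2, position 163550083), the order was turned, with 3.55 to 9.20 in 4 liver sets, no hotspot in B6xSPRET liver, and 30.6 to 63.1 in the 5 kidney sets. No lung or B cell set held a hotspot at any start of Hnf4a.

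Hnf4g-201 was open in 5 liver, 5 kidney and 3 lung sets and in mESC. Here −log10 FDR reached the ceiling of 100 in all 5 liver sets and 48.5 to 91.2 in kidney, so that the start was strongest in liver in the locus that was covered most in kidney. The FDR rises with sequencing depth, which differs between sets. Lung values at this start were 2.02 to 9.83, and Hnf4g-202, the internal start, had no hotspot in any set.

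The forkhead genes and Onecut1 were open at their starts beyond the liver. Foxa1-201 was open in 5 liver, 5 lung, 1 kidney and 1 B cell set, the last 2 both of B6xCAST, and the outer start of Foxa1 (position 57546916) in 5 liver, 5 lung, 2 kidney and 5 B cell sets. Foxa2-204/Foxa2-201 was open in 5 liver, 4 lung and 1 kidney set, while the internal starts of Foxa2 (positions 148045464 and 148045948) were open in all liver, kidney and lung sets and in no B cell set. Foxa3-201 was open in 19 of 20 adult sets (not in B6xPWK lung) and Onecut1-201 in 19 of 20 (not in B6xC3H B cells), whereas the downstream start of Onecut1 (position 74866484) was open in 5 liver, 5 kidney, 3 lung and 0 B cell sets.

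In mESC, 5 of the 12 start groups were open, 1 at each gene but Hnf4a, against 35.4% of start groups in the genome. Values of −log10 FDR there ran from 1.56 at Hnf4g-201 to 5.82 at Foxa3-201. The base composition of the 200 bases before a start did not follow the number of sets in which it was open throughout. These bases were 71% G or C with 17 CpG at Foxa3-201 and 71.5% with 23 CpG at Onecut1-201, which were open in 19 sets each, and 47.5% with 1 CpG at Hnf4a-205 and 50.5% with 5 CpG at P1 of Hnf4a, open in 5 and 10 sets. Foxa1-201, however, had 68.5% with 21 CpG and was open in 12 sets, fewer than Hnf4g-201 with 54% and 10 CpG (13 sets), while Foxa2-204/Foxa2-201 with 53.5% and 6 CpG was open in 10.

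**Figure D2:**
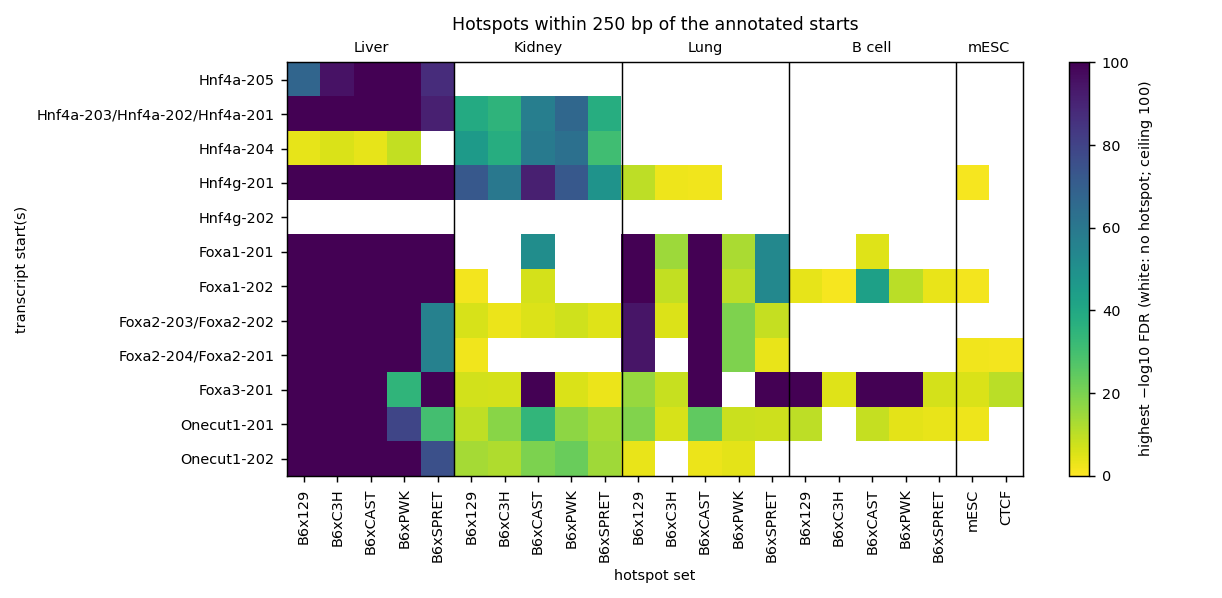
Highest −log10 FDR of a hotspot within 250 bp of each start (rows) in each hotspot set (columns, grouped by tissue, with mESC DNase-seq and CTCF at the right); colour runs from 0 to the ceiling of 100 and white is no hotspot. Hnf4a-205 is coloured in the 5 liver columns only, Hnf4a-204 is darker in kidney than in liver, and the Foxa3-201 and Onecut1-201 rows are filled in 19 of the 20 adult columns.

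To see where within the loci the tissues differed, overlapping hotspots of the 20 sets were merged into sites. The loci held 213 of 745754 merged sites, 71 at Hnf4a, 44 at Hnf4g, 14 at Foxa1, 18 at Foxa2, 24 at Foxa3 and 42 at Onecut1. Of these, 98 (46%) were found in liver sets only, against 21.5% genome-wide, and 17 (7.98%) were in all 5 liver sets and no other, against 3.03%. Sites of kidney alone made 4.23% against 13.8%, of lung alone 12.2% against 18.1% and of B cells alone 3.76% against 11%. A site was in liver and kidney only in 21 cases (9.86% against 5.6%). Neighbouring sites share a locus, so these shares are given as a description without a test, and 38% of the sites rested on 1 set.

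**Figure D3:**
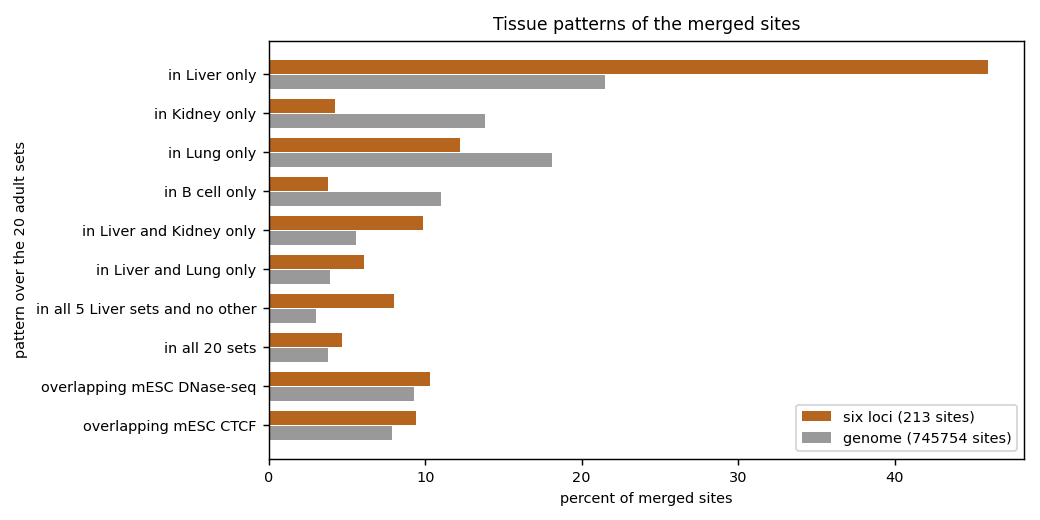
Percent of merged sites (horizontal axis) with each tissue pattern (vertical axis), for the 213 sites of the 6 loci (orange) and all 745754 sites of the genome (grey). The liver-only share is 46% in the loci and 21.5% in the genome, and the shares of kidney, lung and B cells alone are lower in the loci.

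Hnf4a held 7 of the 17 sites that were in all liver sets alone. Besides the P2 start they lay at -10.01, 1.19, 3.90, 4.27, 62.7 and 76.0 kb from that start, and the one at 4.27 kb carries the TGTTTAC printed above. The locus also held a kidney-only site at -3.60 kb (5 of 5 kidney sets), a lung-only site at -12.6 kb (5 of 5 lung sets), and sites open in all 20 sets at 25.4 and 28.6 kb, both bound by CTCF in mESC. Onecut1 held 5 such liver sites, at 13.3, 14.5, 16.004, 16.4 and 35.0 kb, and Foxa3 held 4, at 5.20, 6.93, 8.62 and -9.38 kb. Foxa1 and Foxa2 held 0, and their widest sites, of 13360 and 17217 bp after merging, joined hotspots of all 4 tissues, in 20 and 19 adult sets.

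At Hnf4g, 1 site was in all liver sets alone (-1.71 kb). In kidney, hotspots of 843 to 1325 bp spanned the start of Hnf4g-201, and others lay upstream and within the gene. An intronic site at 105.1 kb, 1877 bp wide after merging, was open in all liver and all kidney sets and in no other. Sites at 73.8 kb and 107.3 kb were open in 5 kidney sets with 0 and 2 liver sets. A site at -5.24 kb was open in all liver and kidney sets, no lung or B cell set, and in mESC, where it was bound by CTCF with a −log10 FDR of 27.5. The CTCF element in its sequence is the one printed above.

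**Figure D4:**
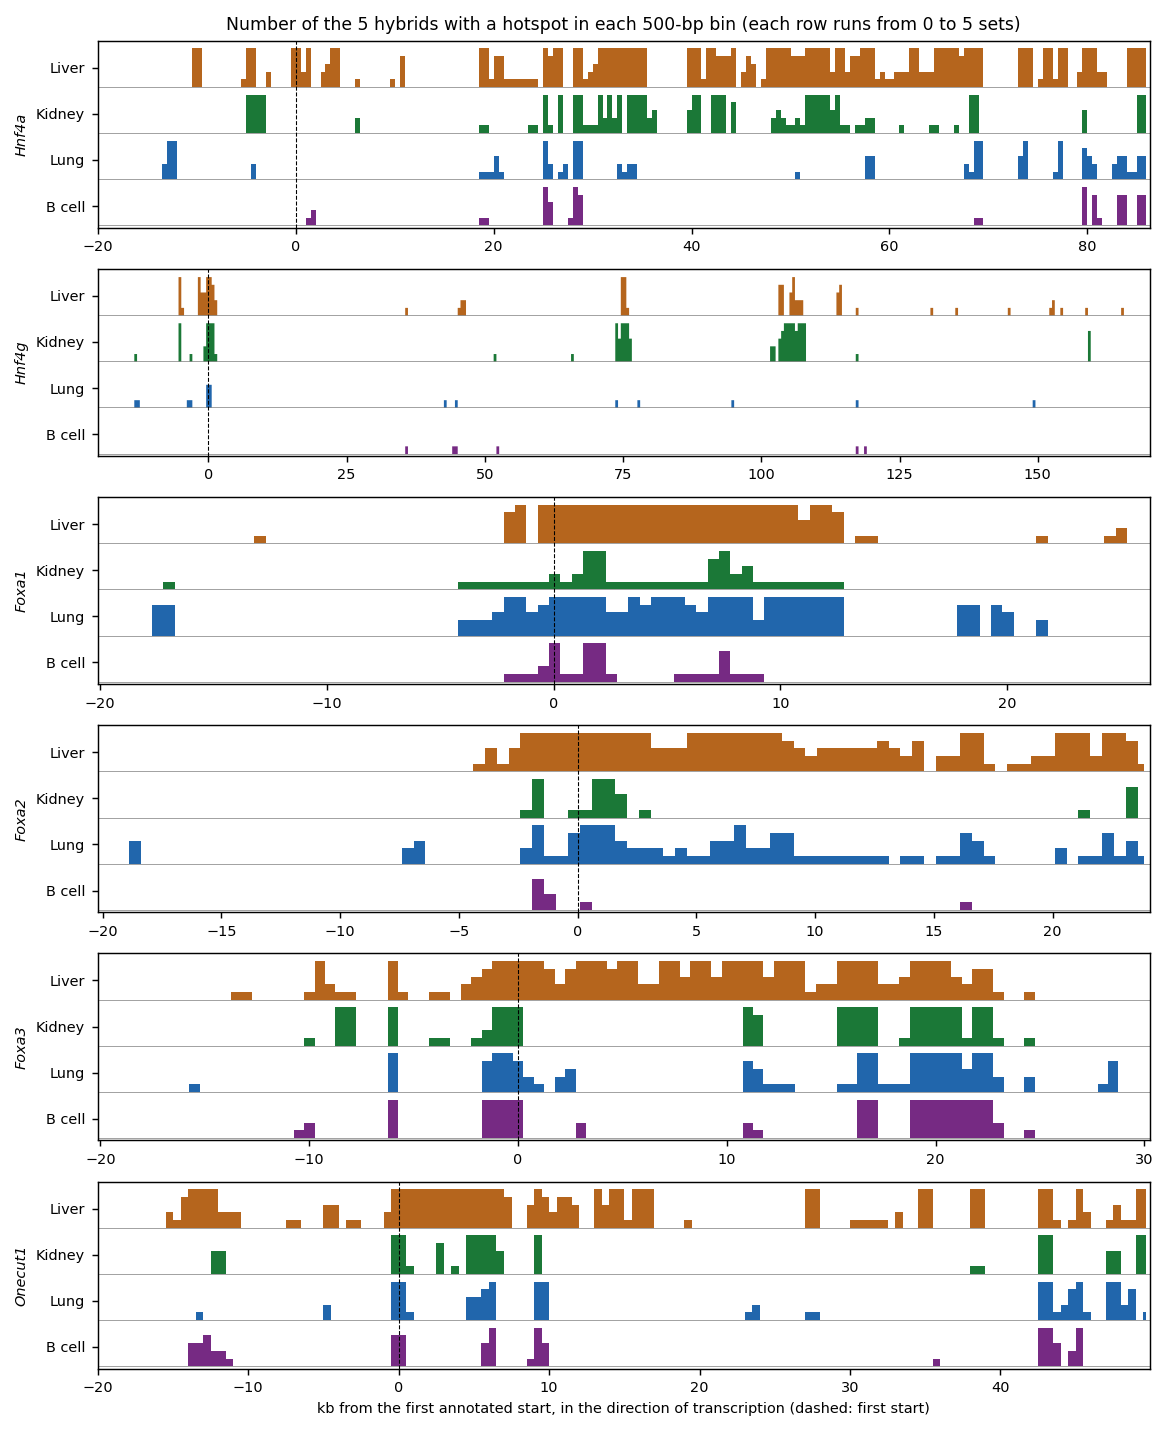
Number of the 5 hybrids with a hotspot in each 500-bp bin (bar height, 0 to 5) along each locus, in kb from the first annotated start in the direction of transcription (dashed line), by tissue. Liver bars are full height over much of Hnf4a, Foxa2 and Onecut1, kidney and liver share the clusters near 75 and 105 kb of Hnf4g, and lung and liver share the bars around Foxa1.

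CTCF, which holds chromatin loops and domain borders, was bound in mESC at 20 of the 213 sites (9.39%, against 7.89% genome-wide), and 22 (10.3% against 9.31%) were open in mESC. By covered length, mESC DNase hotspots took up 4295 bp at Onecut1, 2969 bp at Foxa3, 2423 bp at Foxa1, 1903 bp at Hnf4a, 1246 bp at Hnf4g and 906 bp at Foxa2. The sites open in all 20 adult sets numbered 10 in the loci (4.69% against 3.77%), of which Foxa3 held 4, Onecut1 3, Hnf4a 2 and Foxa1 1. Of these 10, Foxa3 at 21.6 kb was the one with no CTCF hotspot in mESC.

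Exact matches to short motif letters were counted in the sites on both strands. ATCAAT, for ONECUT, was in 43 sites (20.2%, against 12.2% genome-wide), TGTTTAC, for FOXA, in 19 (8.92% against 6.37%), CAAAGTCCA, for HNF4, in 1 (0.469% against 1.08%) and the HNF1 element in 0 (0.0106% genome-wide). Sites in the loci were long, and per 10 kb of site the FOXA letters were found 1.69 times against 1.89 in the genome and the ONECUT letters 4.29 against 4.06 times. The CTCF core motif was added after the CTCF sites had been seen and was in 6 (2.82% against 1.17%). Per 10 kb of site this motif was found 0.39 against 0.32 times and the HNF4 letters 0.0649 against 0.296 times. Onecut1 held no FOXA match in any of its 42 sites. Of 32851 RefSeq promoters of 300 bases, 3.65% held the FOXA letters, as did that of Foxa1, and 7.54% held the ONECUT letters, as did those of Foxa2 and Hnf4a. The promoter shares of the HNF4, HNF1 and CTCF letters were 0.475%, 0.00913% and 0.648%, with no match in a promoter of the genes studied. No match says only that these letters were not in the window.

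The hybrids were compared in the same way, by exact permutation of hybrid labels within tissues (two-sided, smallest possible p = 0.0016). No locus differed after adjustment, against a background of 0% of genes in each of the 5 comparisons. At an unadjusted p under 0.05 by this permutation test there were 4647 genes (21.6%) for B6x129, 1361 (6.33%) for B6xC3H, 2476 (11.5%) for B6xCAST, 249 (1.16%) for B6xPWK and 3835 (17.8%) for B6xSPRET. Of the loci, Foxa1 in B6xCAST was 1.75-fold the other hybrids, at 10682 bp against 6107 bp (exact permutation p = 0.0128, adjusted p = 0.427), and Hnf4g in B6xSPRET was 0.609-fold, at 1594 bp against 2617.5 bp (p = 0.0064, adjusted p = 0.274, exact permutation). The first difference fell to 2559 bp from 4575 bp when kidney was left out. Covered bp were not scaled to the extent of a set, which differed between hybrids. The B6xSPRET liver and kidney sets were the smallest of their tissues (78.4 and 63.6 Mb). Per Mb of set, Hnf4g in B6xSPRET had 29.8 bp in liver (lowest hybrid 28.0) and 63.4 bp in kidney (lowest 59.3), but 0 in lung and B cells.

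The longest liver hotspots were found in B6x129 and B6xC3H, although the median width of a liver hotspot was much the same in all hybrids (263 bp in B6x129, 277 bp in B6xC3H and 268 to 282 bp in the others). At Foxa2 a hotspot of 17207 bp in B6x129 and 1 of 17148 bp in B6xC3H ran over the whole gene, the 12th and the 6th widest of their sets, where the widest were 2808 bp in B6xCAST, 5076 bp in B6xPWK and 2165 bp in B6xSPRET. At Onecut1 the widest were 7888 and 7763 bp against 3723, 3488 and 1528 bp. The extreme of the whole set differed likewise: hotspots over 5000 bp numbered 521 and 345 in the B6x129 and B6xC3H liver sets (0.176% and 0.16% of their hotspots) but 25, 55 and 26 in B6xCAST, B6xPWK and B6xSPRET liver. Of those at the 6 loci, 8 were in the former and 3 in the latter sets, with 0 in kidney, lung and B cells. The B6x129 and B6xC3H parents are classical laboratory strains and the animals were bought as hybrids, whereas the other crosses were bred for the study, so that genotype, origin and processing cannot be told apart.

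The loci were set beside other genes of the network and its targets, from lists of 16 and 12 genes. Of the 16 regulators, 14 were more covered in liver (adjusted exact permutation test, background 37.7%), and the exceptions were Onecut3 (3330 bp in liver, 3586 bp in B cells, adjusted p = 0.943) and Gata6 (9096 bp in liver, 7991 bp in kidney, adjusted p = 0.243). Rxra, the common partner of nuclear receptors, was the most covered at 38686 bp in liver, followed by Nr5a2 with 31290 bp and the fatty acid receptor Ppara with 30330 bp. In B cells 2 of the 16 were less covered (background 23.4%), Gata6 among them (1968 bp, adjusted p = 0.00825, exact permutation). None of the 16 was called higher in kidney (background 6.31%) or lung (0%).

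All 12 targets were more covered in liver (background 37.7%), among them Apob with 31704 bp, Alb with 22609 bp and Pck1, a gluconeogenic enzyme shared with kidney, with 15292 bp in liver and 13414 bp in kidney. None of the 12 was called higher in kidney (background 6.31%) or lung (0%) or lower in B cells (23.4%). The median log2 ratio of covered bp in liver to the rest was 1.90 for the 6 loci, 1.88 for the regulators and 2.91 for the targets, against 0.39 over all genes. In B cells it was -2.79, -1.99 and -2.71 against -0.59, in kidney -0.88, -0.29 and -1.79 against 0.01 and in lung -0.82, -1.14 and -2.21 against -0.21.

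Genes with the most similar profile across the 20 sets were sought by Pearson correlation of the share of a set's covered bp that lay in the locus. For Hnf4a these were Cdh2 (r = 0.991), Car1 (0.990) and Slc22a26 (0.985), for Hnf4g Hyal5 (0.980), Aoc1 (0.963) and Slc22a22 (0.963), and for Onecut1 Mup19 (0.985), Fetub (0.982) and Olfr16 (0.980). Likeness was lower for Foxa1, with Gm973 (0.898), Gm17268 (0.886) and Atxn10 (0.871), for Foxa2, with AC153137.1 (0.925), Gad2 (0.920) and Olfr987 (0.909), and for Foxa3, with Gtf2a2 (0.892), 1700034I23Rik (0.889) and Top3a (0.886). Slc22a22, for instance, averaged 6574 bp in kidney and 4373 bp in liver but 745 bp or less elsewhere, the order seen at Hnf4g. Among the 6 loci the closest pair was Hnf4a and Onecut1 (r = 0.918) and the most opposed Hnf4g and Foxa1 (r = -0.252). These values describe 20 points that share tissues, hybrids and the extent of each set.

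RNA levels of the factors were low in the deposited tables, whose expected counts summed to 283725 to 809337 per sample. Foxa1 alone of the 6 genes passed the filter that 4479 genes passed. It had 8 counts in B6xC3H liver, 28 in B6xPWK liver and 4 in each of 2 B6xSPRET liver samples, 12, 12, 15 and 12 in lung, and 1, 2, 0 and 3 in kidney. All 5 B cell samples had 0, which allows up to 3.71 to 10.5 CPM, counts scaled to the library at a limit of 3 counts. All liver and lung counts lay above those of kidney and B cells, but the lowest liver count was 4 and the highest kidney count 3. How many other genes were separated in this way was not counted. In CPM, liver was at 13.3 to 88.6 and lung at 30.97 to 39.1, and on the TPM scale, which is per length, liver was at 4.10 to 28.7 and lung at 10.3 to 13.3.

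With edgeR's quasi-likelihood test of each tissue against the mean of the others, Foxa1 was higher in liver (adjusted p = 1.18e-06, background 21.8%) and in lung (adjusted p = 0.000765, background 29.6%) and lower in B cells (adjusted p = 9.15e-06, background 30.1%), while kidney was not called (adjusted p = 0.812, edgeR). Foxa1 could pass the count filter only through tissues where its counts are high, as kidney reached at most 6.44 CPM and B cells 0. The liver, lung and B cell calls therefore depend in part on that selection. Fitted fold changes are left out because B cells are at 0. The test modelled tissue and not hybrid. It scaled samples by a factor estimated across genes, whereas the CPM above used library size alone. By CPM the median was higher in lung (31.4) than in liver (19.5), and the order of these tissues was not tested. The same tissues, liver and lung, were those in which the Foxa1 locus was most covered. Given that selection, the RNA calls are not used as support for this.

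The other factors were read as counts without a test. Hnf4a had 5, 8, 1 and 0 counts in liver, 4, 5, 6 and 2 in kidney, 0 in all 4 lung samples and 1 in 1 of 5 B cell samples, so that RNA was found in liver and kidney, the tissues in which P1 was open. Onecut1 had 4, 3, 13 and 1 in liver and at most 3.97 in any other sample. Hnf4g, Foxa2 and Foxa3 never exceeded 2 counts in any of the 17 samples, and differences between tissues were not detectable at this depth. Gm16551, a non-coding transcript whose start lies at -13.9 kb from Onecut1 and was open in 5 liver, 1 lung and 4 B cell sets, had 1 to 4 counts in 4 of 4 liver samples and 0 in the other 13.

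**Figure D5:**
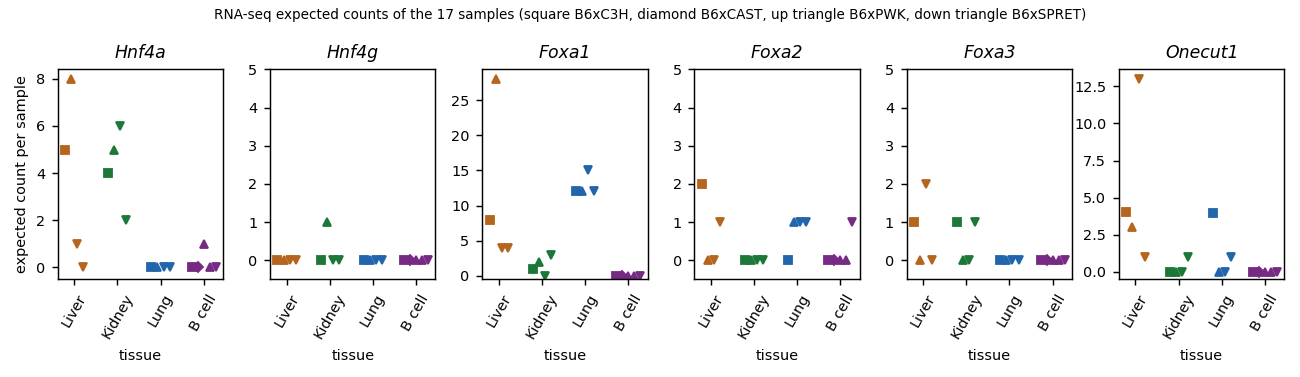
Expected RNA-seq counts per sample (vertical axis) of each gene in liver, kidney, lung and B cells (horizontal axis), with 1 symbol per sample and its shape giving the hybrid. Foxa1 has 12 to 15 counts in lung, 4 to 28 in liver, 0 to 3 in kidney and 0 in B cells, and Hnf4a counts are found in liver and kidney but in no lung sample.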

How the data were processed

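DNase-seq and CTCF ChIP-seq reads were, per the study's methods, trimmed with Trimmomatic, aligned with BWA to mm10 and called with hotspot2 at an FDR of 5%. The 20 adult sets pool all libraries of a hybrid and tissue; whether those of mESC were pooled is not given in the sources used here. The deposited hotspot files give −log10 FDR with a ceiling of 100. The deposited RNA tables, made by the authors with STAR and RSEM, hold expected counts, which were rounded for testing, and TPM.

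Hotspots were intersected with GENCODE gene bodies of mm10 and 20 kb flanks in Python 3.11.15 (numpy 2.4.6, scipy 1.17.1, figures with matplotlib 3.10.9), requiring 1 bp of overlap. Exact permutation tests were adjusted over 21495 genes, and RNA was tested with edgeR 4.0.16 (DESeq2 1.42.0 as an alternative) in R 4.3.3, at an adjusted p of 0.05. Procedures were tested on simulated data. The read totals the study states for each set were not used here, and the extent of a set is given as hotspots and Mb covered; limits on RNA counts cover counting error only. Groups came from strain and tissue labels. RNA samples of a hybrid and tissue have separate labels, with nothing to say they are separate animals, so their p-values may measure technical spread. No columns of other series were present (0).

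The genes and lists were chosen with earlier results of these data known. Genes named are the 6 members, annotated neighbours in their loci, the 3 genes most alike per member and the listed regulators and targets. Alternatives were other flanks, 75000 hotspots per set, scaling by covered bp, hotspot number, stricter FDR, freer permutation and leaving out each hybrid. Of the listed regulators and markers, 2 genes are not reported here.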

Additional observations from a re-analysis of the deposited data

Results flagged for a closer look

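Within each tissue and locus, the highest and lowest of the 5 hybrids were compared with their nearest neighbour by Dixon's gap ratio. Of 24 groups of 5 sets, 3 held a set that stood apart at the 95% level, or 12.5%, against 9.04% of the 84597 such groups over all genes tested, where chance alone gives about 1 in 20. At Foxa1 the B6xCAST kidney set covered 11892 bp and the B6xCAST B cell set 4480 bp, each far above the next set of its tissue, which were 1965 bp and 680 bp. At Foxa2 the B6x129 kidney set covered 2069 bp, above 1210 bp in the next.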

How the results depend on the processing

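The liver calls of Hnf4a, Foxa3 and Onecut1 held under 14 of 14 alternatives (highest adjusted p 0.0190) and that of Foxa2 under 13 of 14, missing with the number of hotspots (0.115); Hnf4g in kidney held under 8 of 14 (0.0137 to 0.185), Foxa1 in B cells under 8 of 14 (0.0247 to 0.0998), Foxa1 in liver was called under 4 of 14 (gene body, 0.0148; 50 kb flank, 0.0318; 75000 hotspots, 0.0326; without B6xCAST, 0.0462) and Foxa1 in lung under 1 of 14 (divided by the bp of the set, 0.0432), all by exact permutation. The direction turned for Foxa2 in lung with 75000 hotspots (-878 bp) and without B6xCAST (-2447 bp, in a range to 1882 bp over the hybrids left out), for Foxa3 in B cells divided by the bp of the set (8.55 bp per Mb above the rest) and for Foxa1 in liver by number of hotspots (-2.27). Loci less covered in B cells numbered 2 with the gene body alone, 2 with 50 kb flanks, 0 with 75000 hotspots, 3 by number and 2 with labels exchanged over all sets. The share of all genes less covered in B cells was 23.4% in the main analysis. It is not given here for the gene body, 50 kb flanks and exchanged labels. Loci more covered in kidney numbered 0 by number, and in lung 1 when divided by bp. Loci not overlapping in B cells numbered 0 with 75000 hotspots and 0 by number. The share of all genes more covered in lung was 2.2% (gene body), 1.79% (5 kb), 2.52% (75000 hotspots), 6.02% (divided by bp), 2.13% (number), 1.29% (labels exchanged over all sets) and 2.22% (all annotated genes). In liver it was 15.1% divided by bp and 23.6% by number, in kidney 4.15% by number, and for lower coverage in B cells 8.06% with 75000 hotspots, 15.1% divided by bp and 43.8% by number. Non-overlapping shares were 7.58% (divided by bp) and 6.48% (number) in liver and 5.93% (75000 hotspots) in B cells. Starts open in all B cell sets numbered 1 at an FDR of 1% and 1 with 75000 hotspots, and in all kidney sets 4 with 75000 hotspots. Liver-only sites made 36.2% when gaps up to 150 bp were closed and 29.2% of 65 sites with 75000 hotspots, where 5.26% of all sites were in all liver sets alone. The genome-wide share of liver-only sites was 21.5% in the main analysis and is not given here at these settings. HNF1 letters were in 0.0178% of the liver hotspots of the genome. Leaving out 1 hybrid gave 0 to 0 loci and 0% to 0% of genes in kidney, and 0 to 1 loci and 12.5% to 15% of genes in B cells. In liver it gave 4 to 5 loci and 26.8% to 41.7% of genes. Loci not overlapping in B cells then numbered 1 to 3, against 11.1% to 15.3% of genes. Fewer arrangements are possible when a hybrid is left out. For RNA, DESeq2 called 680 genes lower in kidney. Without a count filter edgeR called 1663 genes higher and 1536 lower in liver and 2397 higher in kidney. It then called 3839 higher and 495 lower in lung and 3140 higher and 2186 lower in B cells. The Foxa1 calls in liver, lung and B cells held under 20 of 20 alternatives. They keep the limit stated above for a gene that passed the filter through liver and lung. Other causes were not tested. The labels give no replicate numbers that groups share, so samples could not be paired by animal. The permutations of tissue labels were blocked by hybrid. The main RNA test was not, although B6xC3H, B6xPWK and B6xSPRET have RNA samples of every tissue. B6xCAST has RNA from B cells only, so hybrids were not balanced over tissues in that test. Depth limits the RNA of 5 of the 6 genes, and the extent of a set limits what is called absent.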
